A study of Mus musculus with 9 samples.

Results

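A set of 10 Wnt-responsive genes, 5 feedback inhibitors of the pathway (Axin2, Nkd1, Rnf43, Znrf3 and Notum) and 5 target genes (Tcf7, Myc, Cd44, Ephb2 and Ephb3), were followed in the jejunum of irradiated mice. They were taken by their Ensembl identifiers and not by a cut on measured values, but were chosen with earlier results of these data known. All 10 were found among the 31685 genes listed. The RNA came from jejunal tissue labelled as epithelial, of male wild-type C57BL/6J mice aged 6 to 8 weeks, with 3 mice in each of 3 groups. Control mice were left untreated, TAI mice had their whole abdomen exposed once to 12 Gy of X-rays and were given phosphate-buffered saline, and TAI/IVIg mice had the same exposure of 12 Gy with 500 mg/kg of intravenous immunoglobulin (IVIg), a pooled human IgG preparation. Tissue was taken on day 3, and no group received IVIg without irradiation. Nothing in the labels says whether a sample pooled several mice, so the p-values measure the spread between these 9 samples.

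Wnt proteins bind Frizzled and LRP receptors at the cell surface, which stops a destruction complex from breaking down beta-catenin. The stabilised beta-catenin enters the nucleus and switches on genes through transcription factors of the TCF/LEF family, including genes whose products restrain the pathway again, so that feedback inhibitors serve as readouts of Wnt signalling. In the small intestine this signalling is strongest at the base of the crypts, where stem cells and Paneth cells lie, and it falls towards the villus.

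TAI against control was compared first, to ask how the readouts of Wnt signalling stood 3 days after irradiation. Of the 7 genes that could be tested, 1 rose and 0 fell (by voom on recovered reads 0 fell as well, and 0 were lower at an unadjusted p under 0.05, against 34.3% of all tested genes). The gene that rose was Axin2, from 8.73 ± 1.30 to 16.1 ± 3.25 FPKM (SD, n = 3), a 1.85-fold difference of the means. FPKM are fragment counts scaled to transcript length and library size, so levels can be compared between genes. The other 6 tested genes, Nkd1, Rnf43, Tcf7, Myc, Cd44 and Ephb2, did not pass the threshold, an adjusted p under 0.05 by limma with Benjamini-Hochberg adjustment over the 13056 genes tested. In that comparison 8.81% of all tested genes rose and 26.1% fell. The median log2 fold change was 0.36 over the 7 genes and -0.23 over all tested genes.

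Axin2 is a scaffold protein of the beta-catenin destruction complex and one of the most widely used readouts of Wnt signalling. The gene lies at chr11:108920349-108950783 on the plus strand (GRCm38). Its promoter is shown because it was the one member that passed the test in TAI against control. The 250 bases before its start site in RefSeq (GRCm38.p6, chr11:108920099-108920348, plus strand) read as follows, 5′ to 3′, with capitals marking the GC box GGGCGG, searched on both strands.
Axin2: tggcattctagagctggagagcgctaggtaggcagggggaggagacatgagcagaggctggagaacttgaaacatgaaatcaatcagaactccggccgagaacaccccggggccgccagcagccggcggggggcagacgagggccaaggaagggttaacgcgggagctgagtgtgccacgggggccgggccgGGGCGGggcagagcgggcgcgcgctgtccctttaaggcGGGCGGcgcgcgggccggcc
The window held 2 GC boxes, a word found in 32.7% of the 32851 RefSeq windows of this length. The word bound by TCF/LEF factors, taken as CTTTG followed by a pair of bases that are each A or T, was searched on both strands and was found 0 times here, against 14.8% of all such windows that hold it. Over windows that run to 50 bases after the start site, RefSeq entries matched 7 of the 10 genes with 9 windows, and 0 of the 9 held this word, against 16.9% of all windows. This says only that these letters are not in these windows. Znrf3, Notum and Myc had no entry.

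In the control mice Axin2 stood at 8.90, 9.93 and 7.34 FPKM. In the TAI mice it stood at 19.8, 14.6 and 13.9 FPKM. Every TAI mouse was above every control mouse. The log2 fold change of FPKM + 1 was 0.81 (SE 0.18, 95% interval 0.39 to 1.22, limma adjusted p = 0.0108). It rested on 700 to 966 recovered reads per control mouse and 1307 to 1872 per TAI mouse. Axin2 was higher with an adjusted p between 0.00747 and 0.0475 under all 20 alternative settings.

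**Figure D1:**
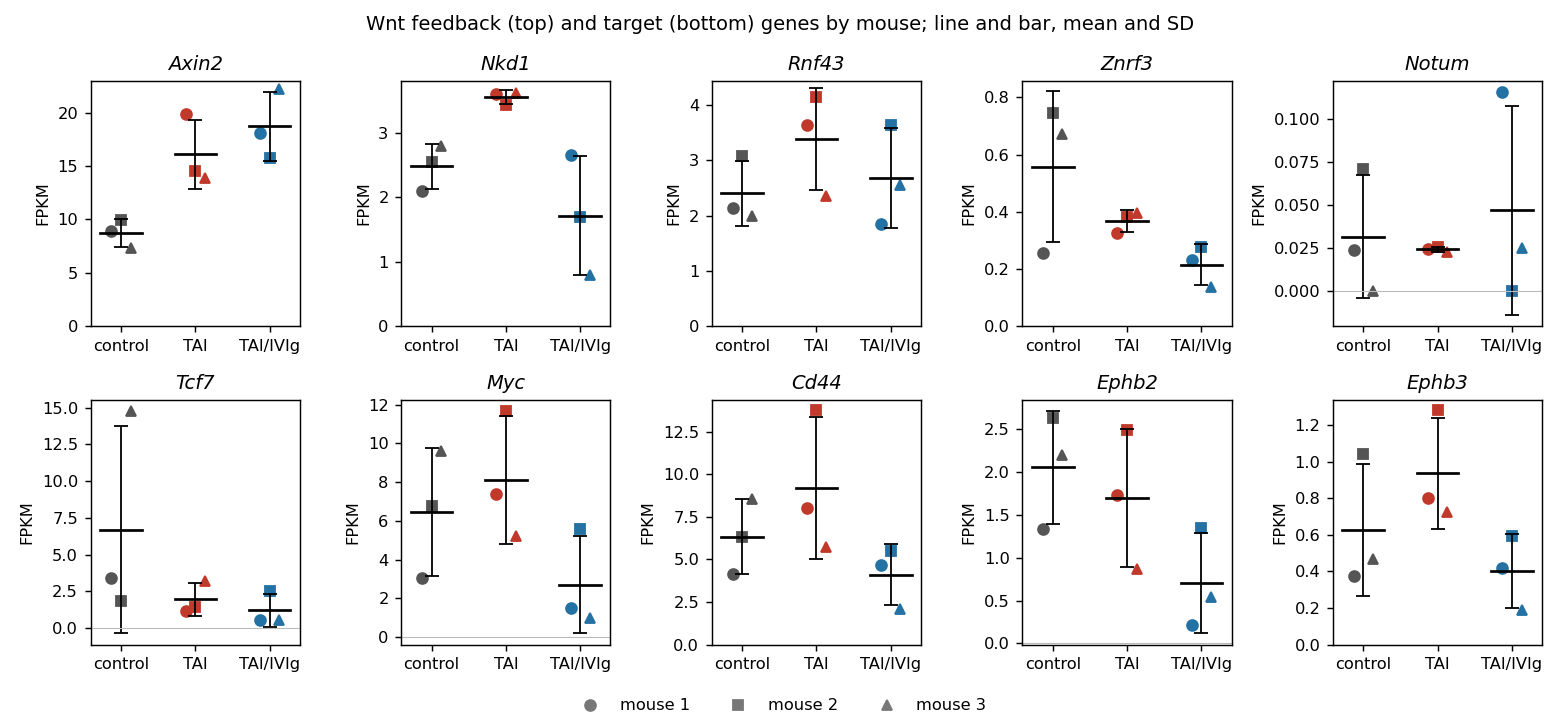
FPKM of the 10 genes (y axis, 1 panel per gene, linear scale) in control, TAI and TAI/IVIg mice (x axis), with feedback inhibitors above and target genes below. Each symbol is a mouse, its shape gives the replicate number, and the line and bar are the mean and SD (n = 3); Axin2 in both irradiated groups lay above all control mice, and Myc, Ephb2 and Tcf7 were each highest in mouse 2 within the TAI/IVIg group.

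Nkd1, a cytoplasmic antagonist that binds Dishevelled, stood at 2.10, 2.54 and 2.79 FPKM in control mice and at 3.60, 3.42 and 3.62 FPKM in TAI mice. The TAI mice lay above all control mice, as did 15.1% of all tested genes. The log2 fold change of 0.39 (95% interval -0.14 to 0.92) did not pass the threshold (limma adjusted p = 0.218), although it did so once library medians were set equal (0.68, adjusted p = 0.0439).

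Rnf43 and Znrf3 encode related membrane E3 ligases that clear Frizzled receptors from the cell surface. Rnf43 stood at 2.13, 3.07 and 2.00 FPKM in control mice and at 3.65, 4.15 and 2.36 FPKM in TAI mice. The groups overlapped through TAI mouse 3, and the log2 fold change was 0.36 (95% interval -0.17 to 0.88, limma adjusted p = 0.258). Znrf3 was lower than Rnf43 in every mouse, at 0.255, 0.746 and 0.673 FPKM in control mice and 0.325, 0.381 and 0.396 FPKM in TAI mice. These groups also overlapped, because control mouse 1 lay below all TAI mice. Znrf3 stayed under the filter of 1 FPKM in 3 mice, as did Notum and Ephb3.

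Notum, a secreted enzyme that removes the lipid from Wnt proteins and so inactivates them, was at or near 0 throughout. It had 1, 3 and 0 recovered reads in control mice, 1 read in each TAI mouse, and 5, 0 and 1 reads in TAI/IVIg mice. At 16282129 to 18241963 reads per library no difference in Notum was detectable, and a count of 0 allows up to 3 reads by counting error alone.

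Among the target genes, Myc, the transcription factor that drives cell growth, stood at 3.05, 6.75 and 9.59 FPKM in control mice and at 7.39, 11.7 and 5.22 FPKM in TAI mice. The range of the TAI mice overlapped widely with that of the control mice, and the log2 fold change was 0.33 (95% interval -0.79 to 1.46, limma adjusted p = 0.625). Its sign rested on control mouse 1, since it was -0.06 without that mouse.

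Cd44, a hyaluronan receptor found on crypt cells and also on leukocytes, stood at 4.16, 6.30 and 8.56 FPKM in control mice and at 8.01, 13.8 and 5.74 FPKM in TAI mice. TAI mouse 2 was the highest of all mice for Cd44, Myc and Ephb3 alike. The log2 fold change of Cd44 was 0.44 (95% interval -0.40 to 1.28, limma adjusted p = 0.379). It was 0.13 without TAI mouse 2, 0.21 without control mouse 1 and 0.70 without TAI mouse 3.

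Ephb2 and Ephb3 are receptors for ephrin-B ligands that keep crypt cells in place. Ephb2 stood at 1.34, 2.63 and 2.20 FPKM in control mice and at 1.73, 2.48 and 0.869 FPKM in TAI mice. Its log2 fold change was -0.20 (95% interval -0.90 to 0.49, limma adjusted p = 0.628) and turned to 0.08 with library medians set equal and to 0.04 without TAI mouse 3. Ephb3 stood at 0.373, 1.04 and 0.470 FPKM in control mice and at 0.800, 1.29 and 0.726 FPKM in TAI mice, with overlap.

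Tcf7 encodes TCF1, a TCF/LEF factor that is itself a Wnt target in the crypt and is abundant in T cells. It stood at 3.43, 1.87 and 14.8 FPKM in control mice and at 1.20, 1.46 and 3.23 FPKM in TAI mice. Control mouse 3 was far above the other 8 mice. The log2 fold change was -1.04 (95% interval -2.40 to 0.31, limma adjusted p = 0.204), and it was -0.33 without control mouse 3.

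A list of 10 T cell genes (Cd3d, Cd3e, Cd3g, Cd4, Cd8a, Cd2, Cd5, Lck, Trac and Trbc2) was read beside Tcf7. Its summed level was 30.3, 20.0 and 122 FPKM in control mice, 10.1, 12.1 and 30.3 FPKM in TAI mice, and 8.52, 25.8 and 15.0 FPKM in TAI/IVIg mice. The mouse with the most Tcf7 in each group was also the mouse with the most T cell RNA. Per 1000 FPKM of this list, Tcf7 stood at 93.6 to 122 FPKM in control mice and at 107 to 121 FPKM in TAI mice, so on that scale the groups differed by 0.08 on the log2 scale. In TAI/IVIg mice the same ratio was 67.0, 96.6 and 36.9 FPKM. Of the 8 T cell genes that were tested 0 passed the limma threshold in any comparison (1 was lower in TAI against control at an unadjusted p under 0.05). Of the 10, 1 was at 0 in some mouse, and B cell genes were also highest in control mouse 3 (summed level 522 FPKM, against 106 to 230 FPKM in the other 8 mice). The part of lymphoid cells in the Tcf7 values was not tested further.

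Enterocyte genes were also higher in both irradiated groups than in control mice, as Axin2 was. A list of 10 enterocyte genes summed to 13383 to 21479 FPKM in control mice, 30959 to 51575 FPKM in TAI mice and 45886 to 49954 FPKM in TAI/IVIg mice. Of the 10, 7 rose in TAI against control, among them Apoa4, Apob and Lct, beside 8.81% of all tested genes. By limma 0 of the 10 were called lower, but 1 was lower at an unadjusted p under 0.05 (34.3% of all tested genes). Fabp2 alone gave 11125, 9034 and 6932 FPKM of the sum in control mice and 19894, 13342 and 26628 FPKM in TAI mice. Per 1000 FPKM of enterocyte genes, Axin2 stood at 0.415, 0.578 and 0.549 FPKM in control mice, 0.485, 0.471 and 0.270 FPKM in TAI mice and 0.363, 0.344 and 0.461 FPKM in TAI/IVIg mice. On this scale the groups overlapped. Within the TAI group the order did not match, since TAI mouse 3 had the most enterocyte RNA and the least Axin2. The part of enterocytes in the Axin2 values was not tested further. Per 1000 FPKM of 9 genes of the whole epithelium (Epcam, Cdh1, keratins and others), Axin2 stood at 1.06 to 1.29 FPKM in control mice, 1.80 to 2.31 FPKM in TAI mice and 1.85 to 2.66 FPKM in TAI/IVIg mice, and here both irradiated groups lay above all control mice. This sum joins genes that moved in opposite ways, since by limma 1 of the 9 rose and 2 fell in TAI against control. Krt20 went from 2213, 1646 and 1453 FPKM in control mice to 3167, 2860 and 2595 FPKM in TAI mice. Krt19 went from 668, 765 and 754 FPKM to 227, 302 and 105 FPKM. These scales were chosen after the data were seen. In bulk tissue, fewer cells of a type and less RNA per cell cannot be told apart.

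**Figure D2:**
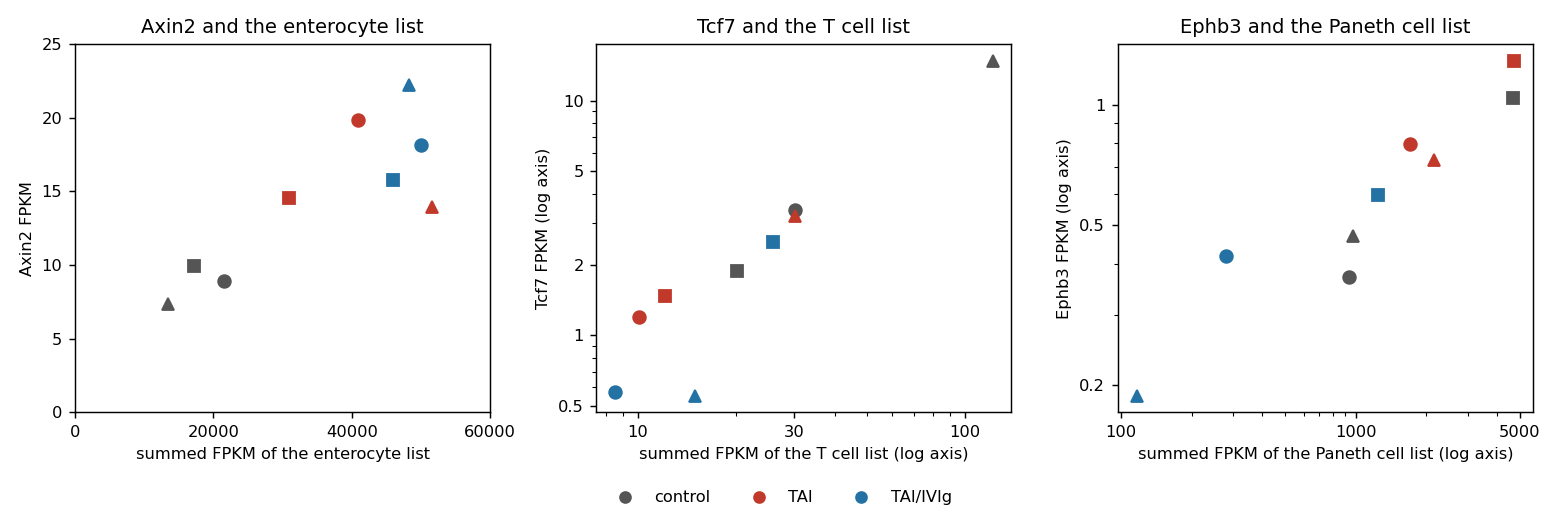
Axin2, Tcf7 and Ephb3 (y axes, FPKM) against the summed FPKM of enterocyte, T cell and Paneth cell gene lists (x axes) in the 9 mice, with linear axes in the first panel and log axes in the others. Colour gives the group and shape the replicate number (circle 1, square 2, triangle 3); irradiated mice lie to the upper right for Axin2, control mouse 3 stands alone for Tcf7, and TAI/IVIg mouse 3 is lowest on both axes for Ephb3.

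TAI/IVIg was next compared with TAI, to ask whether IVIg moved these readouts in irradiated mice. Of the 7 tested genes 0 passed the threshold by limma, as did 0 of all 13056 tested genes (0% in either direction; smallest adjusted p = 0.353), and voom on recovered reads also called 0. At an unadjusted p under 0.05, Nkd1, Myc and Cd44 were lower in TAI/IVIg (3 of the 7) and 0 of the 7 were higher, beside 11.2% and 1.64% of all tested genes. The median log2 fold change was -0.67 over the 7 genes and -0.13 over all tested genes.

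Axin2 stood at 18.1, 15.8 and 22.2 FPKM in TAI/IVIg mice, within and above the range of the TAI mice. Its log2 fold change against TAI was 0.21, with a 95% interval from -0.21 to 0.62 (limma adjusted p = 0.615), and was positive under all 20 alternative settings. The interval leaves room for a small decrease and for a further increase.

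Nkd1 stood at 2.65, 1.69 and 0.798 FPKM in TAI/IVIg mice, against 3.42 to 3.62 FPKM in TAI mice. All 3 values lay below the TAI mice, as was the case for 16.1% of all tested genes. The log2 fold change was -0.80 (95% interval -1.33 to -0.28, limma unadjusted p = 0.00738, adjusted p = 0.353). It had the smallest p of the 7 tested genes in this comparison, and its sign was opposite to that of Axin2, the other intracellular inhibitor.

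Both E3 ligase genes had lower means in TAI/IVIg than in TAI. Rnf43 stood at 1.84, 3.63 and 2.55 FPKM in TAI/IVIg mice, overlapping the TAI mice, with a log2 fold change of -0.26 (95% interval -0.79 to 0.27, limma adjusted p = 0.619). Znrf3 stood at 0.232, 0.276 and 0.136 FPKM in TAI/IVIg mice, each below all TAI mice. With a filter of 10 reads in 3 mice, chosen after the data were seen so that Znrf3 and Ephb3 could be tested among 16793 genes, voom with limma gave a log2 fold change of -0.82 for Znrf3 (adjusted p = 0.391). Znrf3 rested on 18 to 37 reads per TAI/IVIg mouse.

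Myc stood at 1.51, 5.57 and 1.01 FPKM in TAI/IVIg mice. TAI/IVIg mice 1 and 3 were below all other mice, whereas TAI/IVIg mouse 2 lay within the range of the TAI mice. The log2 fold change against TAI was -1.44 (95% interval -2.57 to -0.31, limma unadjusted p = 0.0178, adjusted p = 0.359). Cd44 stood at 4.69, 5.50 and 2.07 FPKM in TAI/IVIg mice, each below the lowest TAI mouse, with a log2 fold change of -0.996 (95% interval -1.84 to -0.15, limma unadjusted p = 0.0255, adjusted p = 0.363).

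The ephrin receptors were also highest in TAI/IVIg mouse 2 within that group. Ephb2 stood at 0.212, 1.34 and 0.544 FPKM in TAI/IVIg mice, with a log2 fold change of -0.67 against TAI (95% interval -1.37 to 0.02, limma adjusted p = 0.393). Ephb3 stood at 0.419, 0.594 and 0.189 FPKM, each below all TAI mice, and its log2 fold change with the filter on reads was -1.31 (voom with limma, unadjusted p = 0.0244, adjusted p = 0.289). Tcf7 stood at 0.571, 2.50 and 0.553 FPKM in TAI/IVIg mice, with a log2 fold change of -0.48 (95% interval -1.83 to 0.88, limma adjusted p = 0.729).

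TAI/IVIg mouse 2 was thus the highest of its group for all 5 target genes and for both E3 ligase genes, and the lowest for Axin2. Paneth cell genes were also highest in mouse 2 of that group. The 6 genes of that list (Lyz1, Mmp7, Ang4 and 3 alpha-defensins) summed to 280, 1249 and 117 FPKM in TAI/IVIg mice, 1711, 4724 and 2151 FPKM in TAI mice and 936, 4666 and 972 FPKM in control mice, with 0 of the 6 at 0 in any mouse. The alpha-defensins are near-identical copies, so reads may be split between them. All 6 were lower in every TAI/IVIg mouse than in every TAI mouse, as were 16.1% of all tested genes. Of the 6, 0 passed the adjusted threshold.

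Genes of the tissue under the epithelium were also lower in TAI/IVIg mice, for fibroblast sums in every mouse and for smooth muscle sums in some. A list of 6 fibroblast genes summed to 47.9, 42.0 and 21.1 FPKM in TAI/IVIg mice, against 73.7 to 94.2 FPKM in TAI mice and 65.8 to 92.1 FPKM in control mice. Of the 6, 0 passed the limma threshold against TAI, although all 6 were lower at an unadjusted p under 0.05 (11.2% of all tested genes). In TAI/IVIg against control 4 of the 6 fell, beside 37.4% of all tested genes, and 1 fell with library medians set equal. A list of 5 smooth muscle genes summed to 510, 274 and 104 FPKM in TAI/IVIg mice, against 494 to 708 FPKM in TAI mice and 447 to 581 FPKM in control mice, so the TAI/IVIg and TAI ranges overlapped and tissue labelled as epithelial held RNA of the wall in all groups. Of the muscle genes 0 passed the limma threshold against TAI, with 5 lower at an unadjusted p under 0.05 (11.2% of all tested genes). Goblet cell genes of the epithelium did the same, with 0 of 6 passing and all 6 lower at that p. Of 10 enterocyte genes and 8 tested T cell genes 0 were lower at that p. A list of 12 cell cycle genes summed to 20.2 to 32.5 FPKM in TAI/IVIg mice and 26.4 to 36.4 FPKM in TAI mice, which overlap, and to 72.8 to 177 FPKM in control mice. Per 1000 FPKM of the Paneth list, Ephb3 stood at 0.272 to 0.467 FPKM in TAI mice and 0.476 to 1.62 FPKM in TAI/IVIg mice. Myc stood at 2.43 to 4.32 and 4.46 to 8.66 FPKM in these groups, and Ephb2 overlapped. Per 1000 FPKM of the 9 epithelial genes, Cd44 stood at 0.759 to 1.70 and 0.248 to 0.757 FPKM, and Myc and Ephb2 overlapped. These scales too were chosen after the data were seen. The part of Paneth, fibroblast and muscle RNA in the lower values of Nkd1, Myc, Cd44, Ephb2 and Ephb3 was not tested further.

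The same values can be read as ratios of Axin2 to each other gene within a mouse. The ratio of Axin2 to Nkd1 was 4.25, 3.90 and 2.63 in control mice, 5.51, 4.26 and 3.84 in TAI mice and 6.84, 9.34 and 27.9 in TAI/IVIg mice. The ratio of Axin2 to Myc was 2.92, 1.47 and 0.766 in control mice, 2.69, 1.25 and 2.66 in TAI mice and 12.0, 2.84 and 22.0 in TAI/IVIg mice. For both, every TAI/IVIg mouse was above every TAI mouse. The same held for the ratios to Cd44 and Ephb3, and did not hold for those to Rnf43, Znrf3, Tcf7 and Ephb2. Of 24 comparisons (8 ratios, 3 pairs of groups; two-sided exact permutation tests on log2 ratios), none could fall below p = 0.1 with 3 mice a group, and the smallest adjusted value was 0.2.

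**Figure D3:**
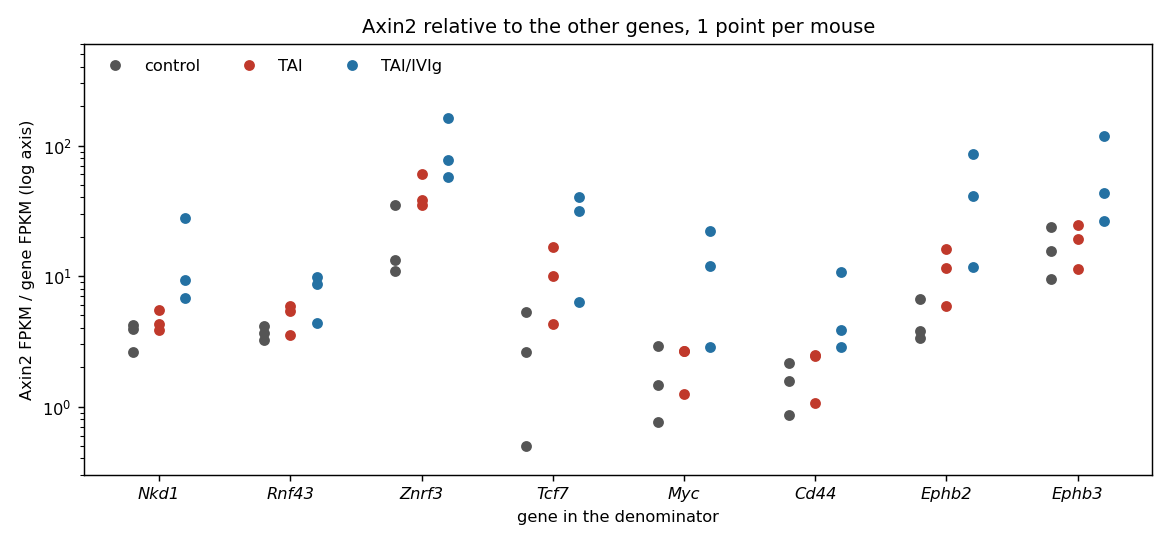
Ratio of Axin2 FPKM to the FPKM of each of 8 other genes (y axis, log scale) by gene (x axis) and group (colour), 1 point per mouse; Notum is left out because it had 0 reads in some mice. TAI/IVIg points lie above all TAI points for Nkd1, Myc, Cd44 and Ephb3 and overlap them for Rnf43, Znrf3, Tcf7 and Ephb2.

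TAI/IVIg against control shared the control mice with the first comparison and the TAI/IVIg mice with the second, so it is no independent evidence for either. Axin2 was 2.15-fold higher in TAI/IVIg than in control mice (18.7 ± 3.26 against 8.73 ± 1.30 FPKM, SD, n = 3). Its log2 fold change was 1.02 (SE 0.18, 95% interval 0.60 to 1.43, limma adjusted p = 0.00282), in a comparison where 9.06% of all tested genes rose and 37.4% fell.

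Ephb2 passed the threshold as lower, at 0.700 ± 0.582 against 2.06 ± 0.658 FPKM (log2 fold change -0.88, limma adjusted p = 0.0426). Its groups nonetheless overlapped, because TAI/IVIg mouse 2 (1.34 FPKM) stood level with control mouse 1 (1.34 FPKM). The call was made in 10 of 19 alternative settings, with adjusted p from 0.0167 to 0.274, and was lost without control mouse 2, control mouse 3, TAI mouse 1, TAI/IVIg mouse 1 or TAI/IVIg mouse 3, each left out in turn.

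The other 5 tested genes did not pass. The log2 fold changes were -1.52 for Tcf7 (limma adjusted p = 0.0649), -1.11 for Myc (adjusted p = 0.0959) and -0.56 for Cd44 (adjusted p = 0.24). Nkd1 was at -0.41 (limma adjusted p = 0.17), a sign that turned to 0.08 after setting library medians equal and to 0.06 after quantile normalization, and Rnf43 was at 0.10 (limma adjusted p = 0.748). With the filter on reads, Znrf3 was lower with a log2 fold change of -1.28 (voom with limma, 95% interval -2.30 to -0.25, adjusted p = 0.0488) and Ephb3 was at -0.64 (adjusted p = 0.327). The Znrf3 groups overlapped, because control mouse 1 (0.255 FPKM) lay below TAI/IVIg mouse 2 (0.276 FPKM), and without any filter limma called 0 of the 10 genes lower, Znrf3 included.

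**Figure D4:**
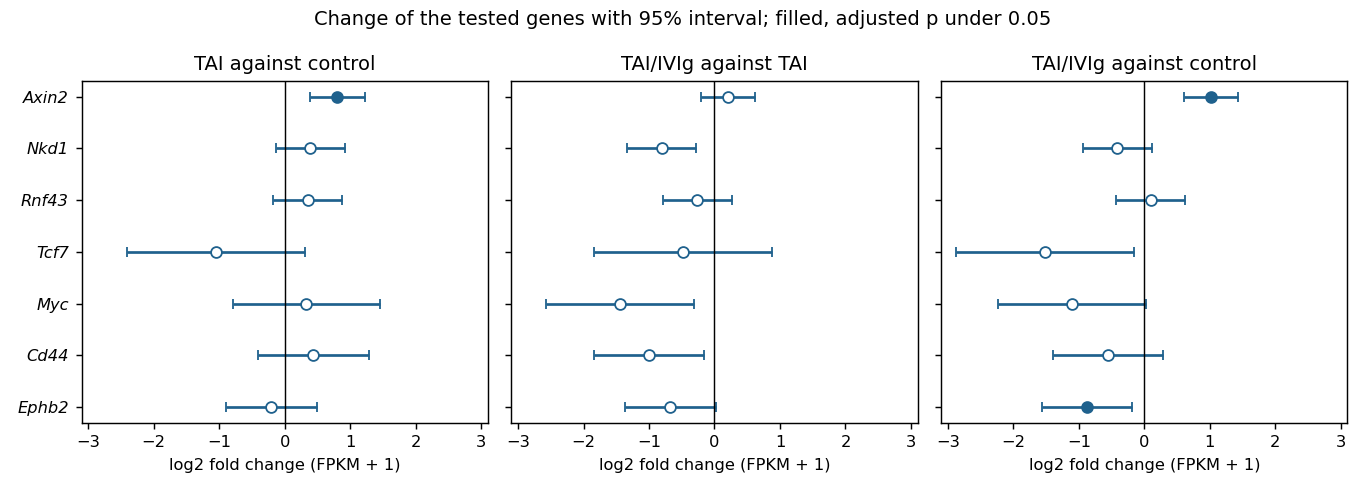
Log2 fold change of FPKM + 1 (x axis) with its 95% interval for the 7 tested genes (y axis) in the 3 comparisons, filled where the limma adjusted p was under 0.05. Axin2 is the filled point to the right in both comparisons with control, Ephb2 is filled to the left in TAI/IVIg against control, and no point is filled in TAI/IVIg against TAI.

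The levels of the 10 genes also differed from each other, per length of transcript. In control mice Axin2, Tcf7, Myc and Cd44 had the highest mean levels (8.73, 6.70, 6.46 and 6.34 FPKM), and their ranges overlapped. Nkd1, Rnf43 and Ephb2 followed at 2.48, 2.40 and 2.06 FPKM, again with overlap, and Ephb3 and Znrf3 at 0.627 and 0.558 FPKM. In TAI mice Axin2 led with a lowest value of 13.9 FPKM against a highest value of 13.8 FPKM for Cd44, and in TAI/IVIg mice the gap widened to 15.8 FPKM for the lowest Axin2 value against 5.57 FPKM for the highest value of any other member, Myc.

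The rest of the pathway was read from lists of 107 further genes, of which 105 were in the table and 58 were tested. In TAI against control 6 rose and 8 fell, beside 8.81% and 26.1% of all tested genes. The median log2 fold change was -0.01, and -0.23 over all tested genes. With library medians set equal 12 rose and 3 fell, with quantile normalization 10 rose, and with voom at median-ratio library sizes 8 rose and 4 fell. The 6 became 3 without control mouse 1 or 2 and 2 without control mouse 3, TAI mouse 1 or TAI mouse 2. In TAI/IVIg against TAI 0 passed by limma and by voom on recovered reads, and at an unadjusted p under 0.05 there were 2 genes above and 11 below, with a median of -0.10. At the same unadjusted p, 1.64% of all tested genes were above and 11.2% below. In TAI/IVIg against control 5 rose and 16 fell, with a median of -0.25, beside 9.06% and 37.4% of all tested genes. The balance turned under the other scalings, to 13 and 3 with library medians set equal and 12 and 4 after quantile normalization. It was 11 and 4 with voom at median-ratio library sizes. The 5 became 3 without TAI/IVIg mouse 3, and the 16 became 8 without control mouse 2, 9 without control mouse 3 and 10 without TAI/IVIg mouse 3.

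Wnt ligands and the genes for their secretion were mostly low, with 4 of 21 listed genes tested (Wnt2b, Wnt4, Wnt5a and Wls) and 0 called in TAI against control by limma or at an unadjusted p under 0.05. R-spondins, secreted proteins that shield Frizzled receptors from Rnf43 and Znrf3, had 1 of 4 genes tested, Rspo3, at a log2 fold change of 0.42 that did not pass. Among 11 tested receptor genes, Fzd4 rose (1.09 ± 0.341 to 2.43 ± 0.308 FPKM, log2 fold change 0.72) and Fzd5, a Frizzled receptor of the intestinal epithelium, fell (22.7 ± 3.60 to 11.0 ± 0.354 FPKM, -0.97, limma adjusted p = 0.00143). Lgr5, the R-spondin receptor of crypt stem cells, was under the filter at means of 0.645 FPKM in control and 0.622 FPKM in TAI mice. A list of 4 stem cell genes (Lgr5, Olfm4, Ascl2 and Smoc2) summed to 13.6, 70.2 and 19.5 FPKM in control mice. The sums in TAI mice were 8.64, 8.57 and 6.99 FPKM. Of the 2 stem cell genes tested 1 fell, beside 26.1% of all tested genes. Of 5 tested secreted or surface inhibitors, Kremen2, a co-receptor of Dickkopf proteins, fell (log2 fold change -0.99) and the other 4 did not pass. Over all tested genes 8.81% rose and 26.1% fell in TAI against control.

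Of 11 tested genes of the destruction complex and its regulators, only Gsk3b, the kinase that marks beta-catenin for breakdown, passed, and it rose from 7.32 ± 0.286 to 10.3 ± 0.530 FPKM (log2 fold change 0.44, limma adjusted p = 0.0166). Among 11 nuclear effectors 3 rose and 3 fell, beside 8.81% and 26.1% of all tested genes. Those that rose were Ctnnb1, which encodes beta-catenin (89.6 ± 7.97 to 122 ± 16.9 FPKM, log2 fold change 0.43, limma adjusted p = 0.0449), Tcf7l2, the main TCF factor of the intestine (0.57), and the co-repressor Tle3 (1.34). Those that fell were Ctnnbip1, which blocks the binding of beta-catenin to TCF (-0.76), and the intestinal transcription factors Cdx1 (-0.70) and Cdx2 (-0.66). All 3 that fell lost their call with library medians set equal and with voom at median-ratio library sizes, and with quantile normalization 1 of the 3, Cdx1, kept it.

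Of 15 other target genes tested, Sox9, a crypt transcription factor, rose (1.94 ± 0.883 to 5.32 ± 2.26 FPKM, log2 fold change 1.08, limma adjusted p = 0.0463). Birc5 (-2.71), a mitotic gene that also stands in the cell cycle list, Cdc25a (-0.83) and Id3 (-0.81) fell. Cdc25a and Id3 lost their call with library medians set equal, and Id3 lost it with voom at median-ratio library sizes as well. The other 11 did not pass, and over all tested genes 8.81% rose and 26.1% fell.

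**Figure D5:**
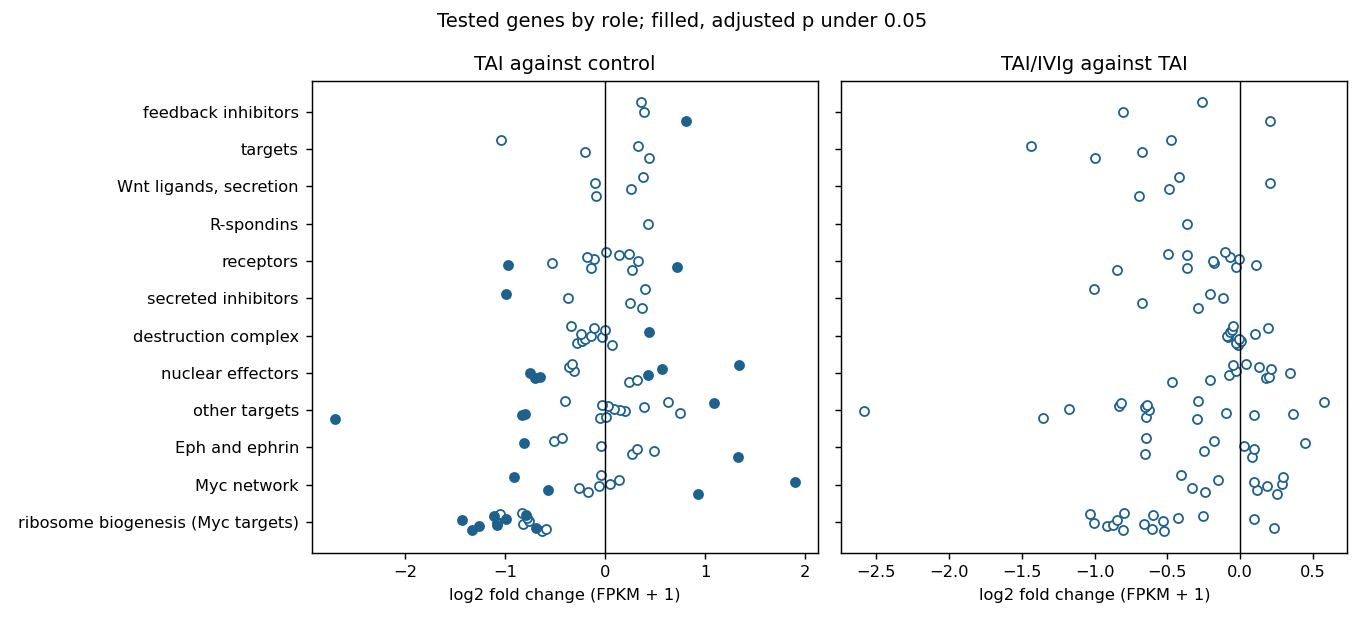
Log2 fold change of FPKM + 1 (x axis) of each tested gene by role (y axis) in TAI against control (left) and TAI/IVIg against TAI (right), filled where the limma adjusted p was under 0.05. On the left side the ribosome biogenesis genes lie left of 0, and the 3 feedback inhibitors and the 1 R-spondin lie right of 0. The other roles there lie on both sides of 0, and no point is filled on the right side.

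Partners and downstream genes of the target genes were listed as well. Of 8 tested Eph receptors and ephrins other than Ephb2 and Ephb3, Efna1 rose (18.9 ± 5.37 to 48.9 ± 14.5 FPKM, log2 fold change 1.33, limma adjusted p = 0.00654) and Epha1 fell (-0.81). Of 10 tested genes of the Myc and Max network, Mxd1, which competes with Myc for Max, rose from 60.5 ± 16.1 to 223 ± 18.8 FPKM (log2 fold change 1.89, limma adjusted p = 0.00161). Max rose too (0.93), and Mxi1 (-0.91) and Mlx (-0.57) fell. For both lists the shares over all tested genes were 8.81% higher and 26.1% lower. The calls of Epha1, Mxi1 and Mlx were lost under each of the 3 other scalings.

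A list of 16 genes known as Myc targets, most of them of ribosome biogenesis, were all tested. In TAI against control 8 fell and 0 rose, with a median log2 fold change of -0.91, beside 26.1% and 8.81% of all tested genes. Myc itself did not pass in that comparison. Npm1 fell from 145 ± 54.7 to 51.2 ± 11.1 FPKM (log2 fold change -1.43), Fbl by 1.33 and Ncl by 1.27 on the log2 scale. In TAI/IVIg against TAI 0 passed by limma, with 6 lower at an unadjusted p under 0.05 (11.2% of all tested genes). In TAI/IVIg against control 15 fell, beside 37.4% of all tested genes. Under the 3 other scalings 5 to 8 fell in TAI against control. The cell cycle list moved with these genes, since all 12 of its genes fell in TAI against control.

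Genes whose profile over the 9 mice lay closest to that of Axin2 and Myc were sought by the root mean square difference of log2(FPKM + 1), centred on the control mean. The closest to Axin2 were Npas2 (0.14), Npc1l1 (0.15) and Gm9917 (0.16). Npas2, a clock transcription factor, averaged 7.18, 13.8 and 16.4 FPKM in control, TAI and TAI/IVIg mice, and Npc1l1, the cholesterol transporter of the enterocyte brush border, 150, 258 and 288 FPKM. The closest to Myc were Gtse1 (0.35), Ccnd2 (0.41) and Ccnd1 (0.42), 2 of them D-type cyclins. Gtse1, a cell cycle gene, averaged 2.55, 2.70 and 0.776 FPKM, and Ccnd1 9.76, 9.45 and 2.91 FPKM in the same order of groups.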

How the data were processed

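Jejunal RNA of 9 mice was analysed, 3 per group, with groups and replicate numbers from the sample labels. The values deposited by the authors are FPKM, with each mouse in its own column. The submitters' processing notes name FastQC, Trimmomatic, STAR, featureCounts and DESeq2 with the mm10/GRCm38 genome, without versions. Lengths and library sizes were worked out from the FPKM values so that reads came out whole, for all 31685 genes (100%). The relative tolerance was 1e-09, with a looser search for genes that this did not solve. Whole reads are therefore no check of the recovery. Totals were 16282129 to 18241963 reads. Lengths of GENCODE M21 guided the library total, and 30359 recovered lengths equalled them. Low FPKM rest on few reads, and this limits precision.

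A linear model with the 3 groups as terms was fitted to log2(FPKM + 1) of all 9 mice (limma 3.58.1, R 4.3.3, trended variance), over the 13056 genes with at least 1 FPKM in at least 3 mice. The pseudocount of 1 shrinks the fold changes of low genes. P-values were adjusted by Benjamini-Hochberg within each comparison, with a threshold of 0.05. A count model could not be the main test on FPKM, so voom was run on the recovered reads as an alternative. The scripts were tested on simulated data. The 10 genes and all lists were chosen with earlier results of these data known. All 10 were named, with up to 3 genes per list and direction that passed in TAI against control by size of log2 fold change, Ctnnb1, Lgr5 and the 3 genes closest to Axin2 and to Myc. Other genes of the marker lists were named as members of a list only.

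Deviations from group means correlated between same-numbered control and TAI mice at 0.271, 0.241 and 0.308, and at -0.296 to 0.201 for TAI/IVIg mice with the others. Correlations between mice of different numbers were not computed, so whether the numbers pair mice was not tested. No label says what a number means. The main model held no replicate block, and a replicate block was run as an alternative. The other alternatives were the pseudocount, the filter, the scaling, the variance trend, voom on recovered reads, the mice fitted and each mouse left out. Within the one batch the labels give, batch could not be compared.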

Additional observations from a re-analysis of the deposited data

How the results depend on the processing

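Axin2 passed in both comparisons with control under all 20 alternatives, and 0 of the genes each alternative tested passed in TAI/IVIg against TAI (7 in most, 3 with a mean of at least 5 FPKM, 9 with voom on at least 10 reads, all 10 without a filter). With library medians set equal, 2 genes rose in TAI against control (Nkd1 as well as Axin2), and among the 58 further Wnt genes 12 rose and 3 fell, against 6 and 8. The gene lower in TAI/IVIg against control, Ephb2, was lost (0 called) without a filter, with a mean of at least 5 FPKM, with medians set equal, with quantile normalization and with voom at median-ratio library sizes. It became 2 with voom on genes of at least 10 reads (added after the data were seen), and ran from 0 to 3 as each mouse was left out. The mean of at least 5 FPKM left Axin2, Myc and Cd44 alone among the 10.

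Of the further Wnt genes in TAI against control, 3 rose without a filter and 10 with quantile normalization, 4 fell with median-ratio voom, and leaving out a mouse gave 2 to 8 rising. In TAI/IVIg against control, 5 rose and 16 fell, against 3 and 8 with a mean of at least 5 FPKM, 13 and 3 with medians set equal, 12 and 4 with quantile normalization and 11 and 4 with median-ratio voom, with 3 to 5 rising and 8 to 16 falling as each mouse was left out. Signs turned for Ephb2 in TAI against control (0.084 with medians set equal; -0.41 to 0.038 as each mouse was left out, the highest without TAI mouse 3), Myc (-0.055 to 0.64, the lowest without control mouse 1), and, in TAI/IVIg against control, Nkd1 (0.079 and 0.057 with medians set equal and quantile normalization) and Rnf43 (-0.087 to 0.27, the lowest without TAI/IVIg mouse 2). The causes were not tested, although medians set equal moved the median of all genes from -0.23 to 0.05 in TAI against control, with 2159 rising and 1823 falling in place of 1150 and 3411 (2880 and 1894 in place of 1183 and 4880 in TAI/IVIg against control).

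With the replicate block Axin2 kept an adjusted p of 0.0182 (limma) and 1 gene rose in TAI against control. The block changed no call among the 7 tested genes. Low reads limit Znrf3, Notum and Ephb3.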
